A study of Mus musculus with 9 samples.

Results

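The circadian clock genes measured here were Arntl, Clock, Per1, Per2, Per3, Cry1, Cry2, Nr1d1, Nr1d2 and Dbp, 10 of the 55401 genes in the count table, chosen by gene name alone. They were measured by poly(A) RNA sequencing in 9 libraries of primary neonatal mouse ventricular myocytes (NMVMs), taken from wild-type C57BL/6J mice at 1 day of age and grown in DMEM with 10% FBS. For the 3 control libraries, cells stayed in complete medium under normoxia. For the 3 hypoxia libraries, cells were moved to DMEM without glucose or serum and kept for 6 h in a sealed chamber with an oxygen absorber. Cells of the 3 hypoxia + rSRGN libraries were treated the same way, with recombinant serglycin (rSRGN), a secreted proteoglycan, in the medium during those hours, at a dose the labels do not give. Loss of oxygen, loss of glucose, loss of serum and the medium change came together, so their parts in any difference from control cannot be told apart. The labels give no clock time of collection and no synchronising step, and every group was sampled at a single time, so a change in level and a shift in phase cannot be told apart either. The labels do not say whether the 3 libraries of a group came from separate litters or cultures, and p-values then measure only the spread between these libraries.

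The molecular clock is a loop of transcription in which ARNTL (BMAL1) and CLOCK pair on E-box sequences and switch on the Per and Cry genes, whose proteins return to block the pair. A second arm runs through Nr1d1 and Nr1d2 (REV-ERB alpha and beta), which repress Arntl and Nfil3 at ROR response elements, where the ROR receptors activate. Dbp, Tef and Hlf activate and NFIL3 represses genes with a D-box, and in heart muscle the clock is known for its hold on ion channels and on fuel use.

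Total counts were 21669017 to 22781557 per library in control, 16583985 to 18148474 in hypoxia and 16640239 to 20826701 in hypoxia + rSRGN. Levels are given as CPM, the counts divided by library size and put on a common scale, with library sizes adjusted by the trimmed mean of M-values (TMM). The cell type label was checked against 15 cardiomyocyte markers, none of which was at 0 in any group. Their summed level was 51650 to 63248 CPM in control, 4248 to 6599 CPM in hypoxia and 8511 to 9135 CPM in hypoxia + rSRGN. The summed level of 12 fibroblast markers was 13226 to 15402 CPM in control, 27790 to 30631 CPM in hypoxia and 30562 to 31575 CPM in hypoxia + rSRGN. In bulk RNA, fewer cells of a type and less RNA per cell cannot be told apart, and the part of this shift in the clock gene values was not tested.

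Promoter sequences were taken from RefSeq (GRCm38.p6), each window running from 250 bases before to 50 bases after a transcription start. The table held 9 of the 10 clock genes and 10 of 11 further genes of the loop, with no entry for Per2 and Bhlhe40. Both strands were searched for the E-box CACGTG, the E'-box CACGTT, the D-box TTATGNAA, the ROR response element (RORE) as TAGGTCA and, searched apart, as TGGGTCA, the cAMP response element TGACGTCA and its shorter form TGACGT, the heat shock element pair GAANNTTC and the hypoxia factor core ACGTG. The last lies within the E-box and, read on the other strand, within the E'-box, and the shorter form lies within the full cAMP response element, so these overlap. Of 32851 mouse promoters of this length, 7.15% held the E-box, 4.68% the E'-box, 3.38% the D-box, 2.61% the RORE with TAGG, 3.98% that with TGGG, 1.79% the full and 7.51% the shorter cAMP response element, 7.86% the heat shock pair and 19.6% the hypoxia factor core.

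Among the 19 genes with a window, TAGGTCA was found in Arntl and Nfil3 alone and TGGGTCA and the heat shock pair in none. The D-box was found in Per1, Per3 and Timeless. The sequences of these genes are shown because the largest rises in hypoxia within the loop were those of Nfil3 and Arntl, and because Per1 and Per3, with 1 and 2 D-boxes, went in opposite directions. All are printed along the gene's own strand with the motifs in capitals, and in Nfil3 the element is read on the other strand. The windows are Arntl at chr7:113207261-113207560 (+), Nfil3 at chr13:52980990-52981289 (-), Per1 at chr11:69098699-69098998 (+) and Per3 at chr4:151044616-151044915 (-).
Arntl: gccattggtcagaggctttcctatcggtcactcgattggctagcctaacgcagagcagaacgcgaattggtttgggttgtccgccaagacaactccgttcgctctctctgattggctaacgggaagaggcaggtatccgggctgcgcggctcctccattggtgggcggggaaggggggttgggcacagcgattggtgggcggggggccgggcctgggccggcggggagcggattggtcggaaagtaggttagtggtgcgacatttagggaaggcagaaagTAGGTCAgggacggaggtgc
Nfil3: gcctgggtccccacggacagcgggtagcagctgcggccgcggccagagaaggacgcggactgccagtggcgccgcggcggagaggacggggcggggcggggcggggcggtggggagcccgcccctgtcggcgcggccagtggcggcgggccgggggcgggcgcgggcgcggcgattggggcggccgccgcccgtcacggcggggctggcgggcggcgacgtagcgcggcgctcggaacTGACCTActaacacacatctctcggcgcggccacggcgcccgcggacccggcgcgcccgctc
Per1: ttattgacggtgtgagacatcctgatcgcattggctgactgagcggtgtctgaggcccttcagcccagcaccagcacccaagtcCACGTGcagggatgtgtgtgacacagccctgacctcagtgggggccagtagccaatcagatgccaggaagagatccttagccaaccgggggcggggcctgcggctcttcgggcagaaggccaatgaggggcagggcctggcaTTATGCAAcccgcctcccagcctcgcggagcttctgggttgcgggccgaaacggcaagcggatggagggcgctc
Per3: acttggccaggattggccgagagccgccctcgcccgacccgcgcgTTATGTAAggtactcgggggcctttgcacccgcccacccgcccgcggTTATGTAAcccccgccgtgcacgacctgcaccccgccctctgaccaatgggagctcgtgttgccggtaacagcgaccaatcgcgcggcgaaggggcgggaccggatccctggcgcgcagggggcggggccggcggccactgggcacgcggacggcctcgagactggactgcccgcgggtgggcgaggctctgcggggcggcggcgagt
The element began 30 bases after the start in Arntl and 12 bases before it in Nfil3. Arntl and Per1 each have another window in the table, at chr7:113207215-113207514 and chr11:69099902-69100201. That of Arntl, whose start is the first base of the gene in the count table, held none of the motifs, and that of Per1 held the shorter cAMP response element but no E-box or D-box. In Per1 the E-box began 166 bases and the D-box 24 bases before the start, and the D-boxes of Per3 began 205 and 158 bases before it. In windows not printed, Cry1 held an E-box and an E'-box, Cry2 and Nr1d1 an E'-box each, and Ciart 3 E-boxes. Tef held an E-box in both of its windows, Bhlhe41 an E-box, Rorb an E'-box in the second of its windows, and Hlf the full cAMP response element. The Clock and Nr1d2 windows held none of the motifs and Dbp held ACGTG only. These matches are descriptions of the letters in these windows and no measure of binding.

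The first comparison, hypoxia against control, asked how the clock genes stood after deprivation. Arntl and Dbp moved furthest, in opposite directions. Arntl, Per1 and Per2 were higher in hypoxia, and Clock, Per3, Nr1d2 and Dbp were lower. Calls needed both a Benjamini-Hochberg adjusted p below 0.05 in edgeR's quasi-likelihood test and a fold change of 1.5 or more. With 3 of 10 clock genes called higher against 26.4% of the 16762 genes tested, and 4 of 10 called lower against 25.1%, these counts were near the background and say nothing particular about clock genes as a group. Their median log2 fold change was 0.01, against 0.05 over all tested genes. The library ranges of 9 of the 10 genes did not overlap between hypoxia and control, which was so for 73.0% of all tested genes.

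Arntl (ENSMUSG00000055116.8, chr7:113207465-113314126) encodes BMAL1, the activator that binds DNA together with CLOCK. Its level was 10.4, 10.8 and 11.4 CPM in the control libraries, 46.4, 40.7 and 39.6 CPM in hypoxia and 51.5, 48.8 and 51.2 CPM in hypoxia + rSRGN. Every hypoxic library lay well above every control library, and the hypoxia and hypoxia + rSRGN ranges did not meet. Arntl rose 3.88-fold in hypoxia, a log2 fold change of 1.95 (SE 0.098, 95% interval 1.75 to 2.16, adjusted p = 6.68e-14). The raw counts behind these levels were 232 to 240 in control and 683 to 863 in hypoxia.

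Clock (ENSMUSG00000029238.11, chr5:76209868-76304792), which encodes the partner of BMAL1, went the opposite way. Its level was 77.1, 70.2 and 80.6 CPM in control, 38.0, 41.5 and 34.0 CPM in hypoxia and 56.2, 51.6 and 48.2 CPM in hypoxia + rSRGN. The 3 groups did not overlap, with hypoxia lowest and hypoxia + rSRGN between hypoxia and control. Clock fell by 1.01 on the log2 scale in hypoxia (SE 0.090, adjusted p = 1.30e-09). The ratio of Arntl to Clock in counts per kb of exon, which does not depend on how libraries are scaled, was 0.247 to 0.282 in control, 1.79 to 2.22 in hypoxia and 1.67 to 1.94 in hypoxia + rSRGN. Clock thus exceeded Arntl per length in all 3 control libraries, and Arntl exceeded Clock in all 6 hypoxic ones.

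**Figure D1:**
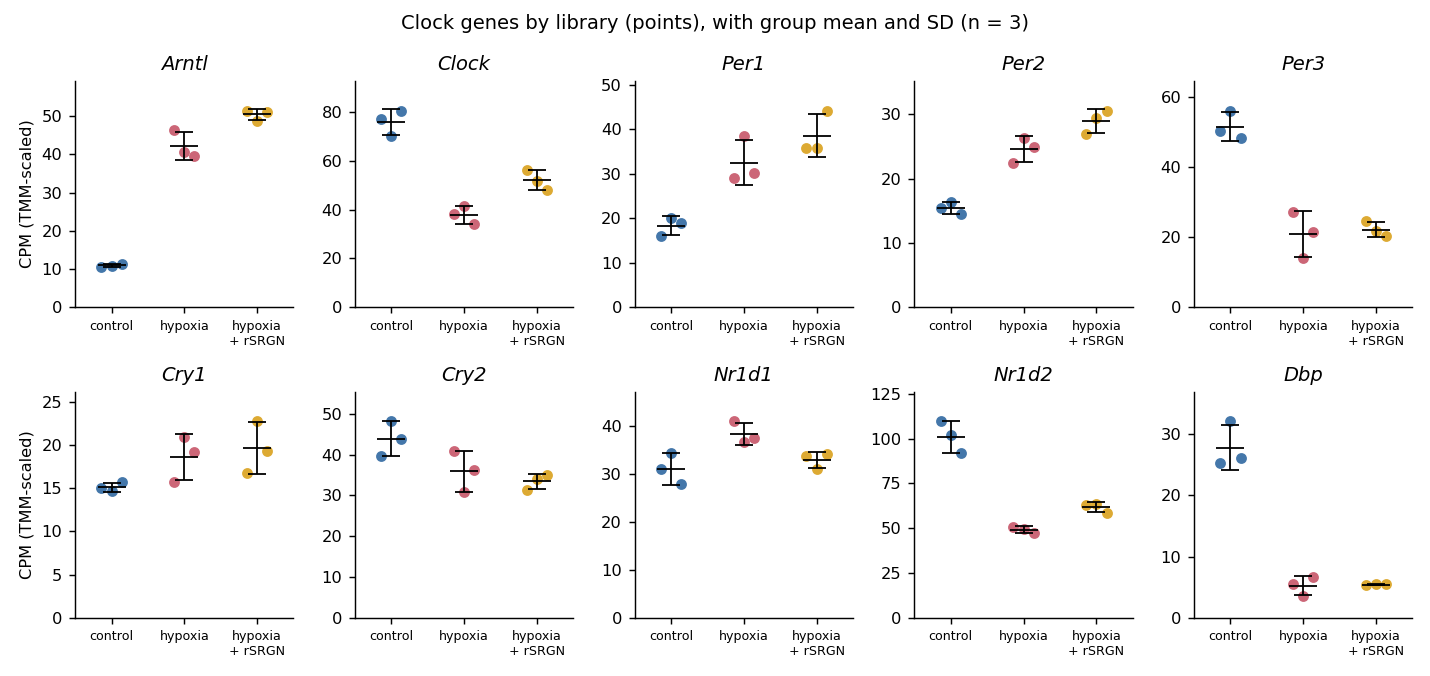
CPM (TMM-scaled, linear axes from 0) of each clock gene in the 9 libraries; points are libraries, the long bar is the group mean and the whiskers the SD (n = 3). Arntl sat at 10.4 to 11.4 CPM in control and 39.6 to 51.5 CPM in the 6 hypoxic libraries, while Dbp sat at 25.3 to 32.2 CPM in control and 3.58 to 6.66 CPM in the others.

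The Per genes, whose proteins form the repressor with the CRY proteins, split. Per1 (ENSMUSG00000020893.17, chr11:69095217-69109960) was at 15.9, 20.05 and 18.8 CPM in control, 28.9, 38.4 and 30.1 CPM in hypoxia and 35.8, 35.7 and 44.2 CPM in hypoxia + rSRGN. Per2 (ENSMUSG00000055866.9, chr1:91415982-91459324) was at 15.4, 16.4 and 14.5 CPM in control, 22.5, 26.3 and 24.9 CPM in hypoxia and 26.9, 29.3 and 30.6 CPM in hypoxia + rSRGN. Both were above every control library in every hypoxic one. In hypoxia against control, the log2 fold change was 0.83 (SE 0.12, adjusted p = 3.22e-06) for Per1 and 0.67 (SE 0.10, adjusted p = 5.59e-06) for Per2.

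Per3 (ENSMUSG00000028957.12, chr4:151003652-151044665), the Per gene that the loop can do without, fell. It was at 50.2, 56.1 and 48.2 CPM in control, 27.0, 14.04 and 21.5 CPM in hypoxia and 24.5, 21.6 and 20.2 CPM in hypoxia + rSRGN. The hypoxia group was spread from 14.04 to 27.0 CPM, with replicate 2 lowest, and lay below control throughout. Per3 fell by 1.30 on the log2 scale in hypoxia (SE 0.15, adjusted p = 6.87e-08), with values from -1.54 to -1.09 over all alternatives. The ratio of Per1 to Per3 per kb went from 0.539 to 0.666 in control to 1.83 to 4.66 in hypoxia and 2.49 to 3.73 in hypoxia + rSRGN.

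The Cry genes stayed under the fold change limit in hypoxia. Cry1 (ENSMUSG00000020038.10, chr10:85131700-85185064) was at 14.96, 14.7 and 15.7 CPM in control, 15.7, 20.9 and 19.2 CPM in hypoxia and 16.7, 22.7 and 19.3 CPM in hypoxia + rSRGN. Cry2 (ENSMUSG00000068742.11, chr2:92403646-92434043) was at 39.6, 48.2 and 43.8 CPM in control, 40.9, 30.8 and 36.3 CPM in hypoxia and 31.3, 34.0 and 35.0 CPM in hypoxia + rSRGN. The lowest hypoxia library of Cry1 was barely above the highest control library, and the hypoxia and control ranges of Cry2 overlapped. The log2 fold change in hypoxia was 0.30 for Cry1 (95% interval 0.04 to 0.56, adjusted p = 0.0364) and -0.29 for Cry2 (-0.50 to -0.07, adjusted p = 0.0184), both under the fold change limit and so not called.

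The REV-ERB repressors diverged from each other. Nr1d1 (ENSMUSG00000020889.11, chr11:98767932-98775333) was at 31.0, 34.5 and 27.9 CPM in control, 41.0, 36.7 and 37.5 CPM in hypoxia and 33.7, 31.1 and 34.2 CPM in hypoxia + rSRGN. Nr1d2 (ENSMUSG00000021775.11, chr14:18204054-18239127) was at 110, 102 and 91.8 CPM in control, 50.8, 49.5 and 47.1 CPM in hypoxia and 63.2, 63.3 and 58.7 CPM in hypoxia + rSRGN. Nr1d1 was highest in hypoxia, with control and hypoxia + rSRGN overlapping, whereas Nr1d2 was lowest in hypoxia with no overlap among the 3 groups. Nr1d2 fell by 1.04 on the log2 scale in hypoxia (SE 0.080, adjusted p = 9.62e-11). For Nr1d1 the log2 fold change was 0.30 (SE 0.096, adjusted p = 0.00782), under the fold change limit. The ratio of Nr1d1 to Nr1d2 per kb was 0.497 to 0.596 in control, 1.30 to 1.42 in hypoxia and 0.863 to 1.02 in hypoxia + rSRGN. It was the one ratio of the 8 formed within libraries, besides Arntl to Nr1d1, for which no pair of groups overlapped.

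Dbp (ENSMUSG00000059824.12, chr7:45705088-45710203), a D-box activator that ARNTL and CLOCK drive, fell furthest. It was at 25.3, 32.2 and 26.1 CPM in control, 5.48, 3.58 and 6.66 CPM in hypoxia and 5.30, 5.49 and 5.49 CPM in hypoxia + rSRGN. The lowest control library held 541 counts and the highest hypoxia library 115. Control was thus far above both hypoxic groups, which lay over each other. Dbp was 5.31-fold lower in hypoxia, a log2 fold change of -2.41 (SE 0.16, adjusted p = 9.11e-12). The ratio of Arntl to Dbp per kb was 0.134 to 0.174 in control, 2.36 to 4.52 in hypoxia and 3.54 to 3.86 in hypoxia + rSRGN.

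**Figure D2:**
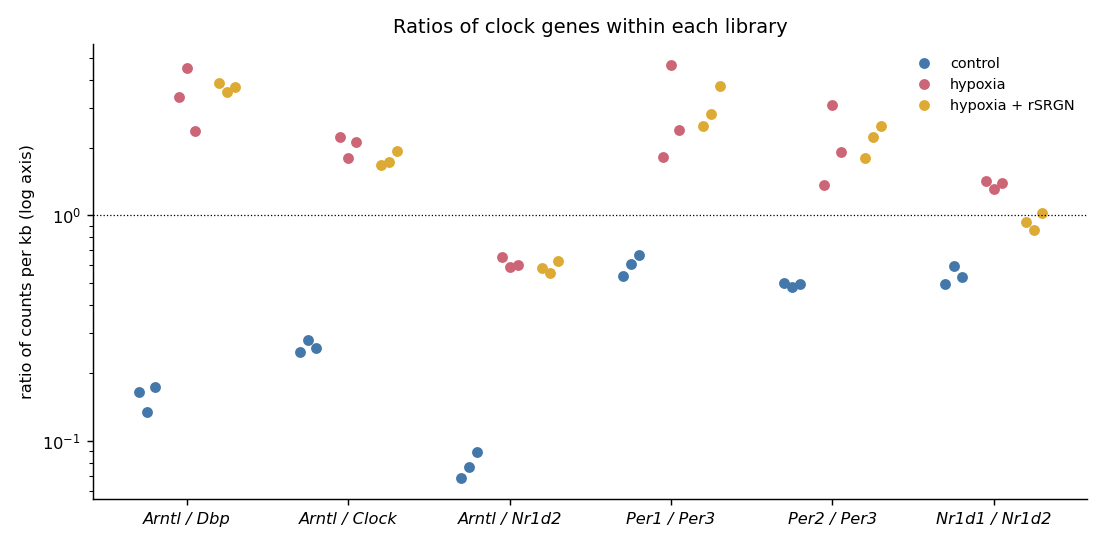
Ratios of clock genes in counts per kb of exon within each library (log axis, dotted line at 1, 3 points per group). Arntl to Dbp and Arntl to Clock lay below 1 in every control library and above 1 in every hypoxic library, and Nr1d1 to Nr1d2 was 0.497 to 0.596 in control, 1.30 to 1.42 in hypoxia and 0.863 to 1.02 in hypoxia + rSRGN.

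Counting was not stated to use strand, and exons of 4 clock genes overlap a gene on the other strand. Dbp shares 539 of its 2993 exon bases with Sphk2, which was at a mean of 22.5 CPM in control and 24.1 CPM in hypoxia (log2 fold change 0.10, adjusted p = 0.539). Nr1d1 shares 263 of 3077 bases with Thra, which was at 131 CPM in control and 98.2 CPM in hypoxia, a log2 fold change of -0.41. Cry2 shares 295 of 6320 bases with D930015M05Rik, which stayed under 1 CPM in mean in all groups, and Arntl shares 33 of 7523 bases with Gm45355, also under 1 CPM. Of the further loop genes, Bhlhe41 shares 1280 of 6720 bases with Gm43909. Gm43909 was at a mean of 0.75 CPM in control and 3.35 CPM in hypoxia, called higher at 2.15 on the log2 scale. Bhlhe40, Rora and Tef share fewer bases, each with a gene under 1 CPM in mean in all groups. The values of these clock and loop genes are uncertain to that extent.

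Ordered by level per length in control, Nr1d2 came first at 18.7 CPM per kb, then Nr1d1 at 10.1, Dbp at 9.30, Cry2 at 6.94, Clock at 5.53, Per3 at 5.36, Cry1 at 4.52, Per1 at 3.24, Per2 at 2.64 and Arntl last at 1.45 CPM per kb. Of these neighbours, Nr1d1 and Dbp, and Clock and Per3, overlapped between libraries. In hypoxia the order was Nr1d1 at 12.5 and Nr1d2 at 9.09, then Per1, Cry2, Arntl and Cry1 together at 5.58 to 5.76, Per2 at 4.196, and Clock at 2.76, Per3 at 2.17 and Dbp at 1.75 CPM per kb, with overlap along each of the last 3 and along the group of 4. In hypoxia + rSRGN, Nr1d2 at 11.4 and Nr1d1 at 10.7 CPM per kb overlapped at the top. Per1, Arntl, Cry1, Cry2 and Per2 then ran with overlap from 6.84 to 4.94, and Clock at 3.79, Per3 at 2.30 and Dbp at 1.81 CPM per kb each stood apart from its neighbour. Arntl thus went from the last place in control to the middle of the order, and Dbp from among the first places to the last.

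**Figure D3:**
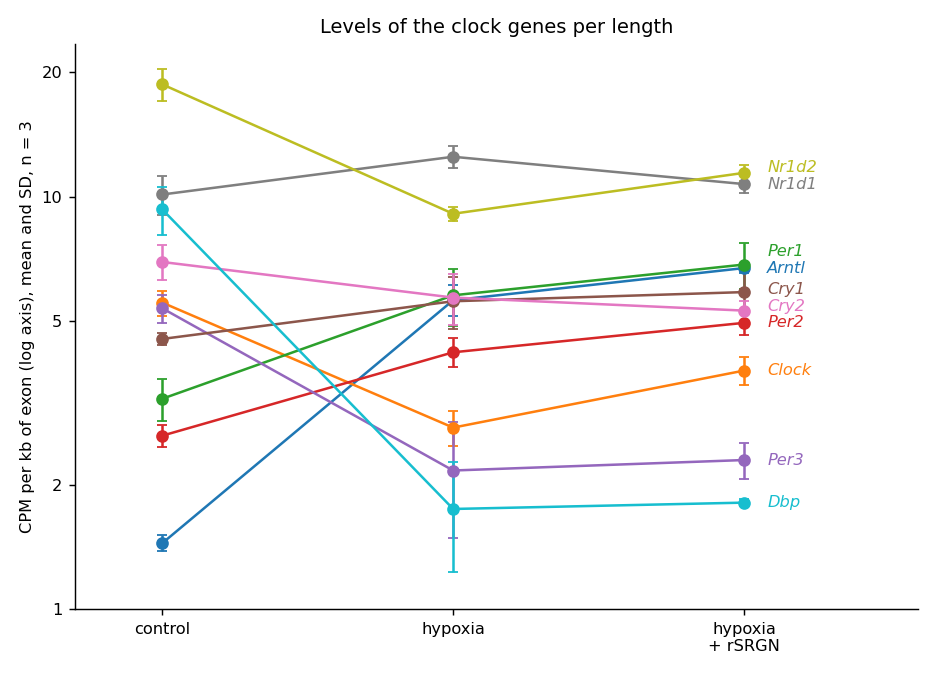
CPM per kb of exon (log axis) of the 10 clock genes in control, hypoxia and hypoxia + rSRGN; points are means and whiskers SDs (n = 3). Arntl climbed from 1.45 in control to 5.61 in hypoxia and 6.71 in hypoxia + rSRGN, and Dbp dropped from 9.30 to 1.75 and 1.81 CPM per kb.

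Of 11 further genes of the loop, 4 were called higher and 4 lower in hypoxia against control, and their median was 0.18 on the log2 scale. Over all tested genes 26.4% were called higher and 25.1% lower, so counts of this size in so short a list say nothing particular about the loop. The PAR bZIP relatives of Dbp fell as well. Tef was at 132, 138 and 136 CPM in control and 53.1, 44.96 and 50.9 CPM in hypoxia, a log2 fold change of -1.45 (SE 0.076, adjusted p = 1.35e-13). Hlf was at 26.5, 23.3 and 23.0 CPM in control and 2.58, 1.502 and 1.33 CPM in hypoxia, a log2 fold change of -3.73 (SE 0.18, adjusted p = 4.50e-14). Nfil3, the D-box repressor, rose from 14.3, 13.3 and 16.8 CPM to 69.0, 99.7 and 76.4 CPM, a log2 fold change of 2.47 (SE 0.12, adjusted p = 5.38e-14). All 3 D-box activators were thus lower in every hypoxia library than in any control library, and the D-box repressor was higher. Ranges did not overlap, in either direction, for 73.0% of all tested genes, so such a separation was common.

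Among the ROR receptors, Rorb fell by 2.10 on the log2 scale in hypoxia (adjusted p = 1.58e-05). Its level was low, at 3.16 CPM in mean in control and 0.73 CPM in hypoxia, with 9 to 19 counts per hypoxia library. Under the filter of at least 10 counts in every library it was not tested. Rora had a log2 fold change of -0.17 (adjusted p = 0.146) and overlapped with control. Arntl2, the paralogue of Arntl, rose by 1.39 (adjusted p = 8.25e-07), and Npas2, which can stand in for CLOCK, fell by 0.75 (adjusted p = 0.00366). Of the E-box repressors, Bhlhe40 had a log2 fold change of 0.59 (adjusted p = 3.79e-06), just past the fold change limit, and Bhlhe41 one of 0.18 (adjusted p = 0.159). The call of Bhlhe40 was lost in 8 of 16 alternatives, with 0.49 without control replicate 1, 0.49 without hypoxia replicate 2 and 0.57 without hypoxia + rSRGN replicate 3. Ciart, a further repressor of the loop, was at 0.74 (adjusted p = 0.00446), with overlapping ranges and a call lost at 0.56 without control replicate 3 and 0.55 without hypoxia replicate 3. Timeless was at 0.49 (adjusted p = 0.00114), not called.

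**Figure D4:**
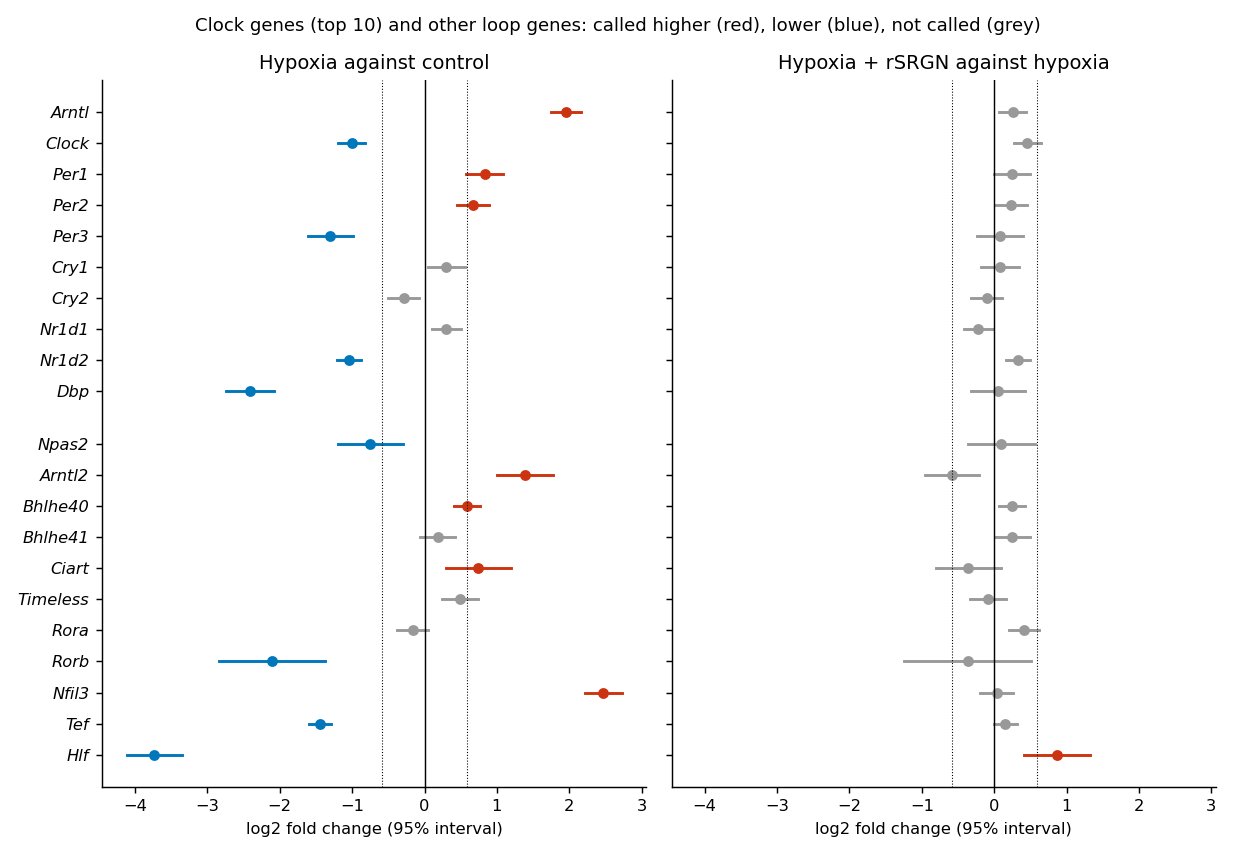
Log2 fold changes with 95% intervals from the edgeR fit for the 10 clock genes (upper block) and 11 further loop genes (lower block), hypoxia against control on the left and hypoxia + rSRGN against hypoxia on the right; red marks genes called higher, blue lower, grey not called, and dotted lines mark 1.5-fold. On the left Arntl at 1.95 and Nfil3 at 2.47 stand furthest to the right and Hlf at -3.73 and Dbp at -2.41 furthest to the left; on the right Hlf at 0.87 is the only gene called.

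The second comparison, hypoxia + rSRGN against hypoxia, asked whether serglycin changed the clock genes of deprived cells. None of the 10 was called by edgeR's quasi-likelihood test at the fold change limit, nor by DESeq2. Over all tested genes, 2.27% were called higher and 0.859% lower. At an unadjusted p below 0.05 and with no fold change limit, 6 of the 10 differed (Arntl, Clock, Per1, Per2, Nr1d1 and Nr1d2), against 29.4% of all tested genes. At an adjusted p below 0.05 with no fold change limit the number was 2 (Clock and Nr1d2), against 16.6% of all tested genes, a share near the background. The median log2 fold change of the clock genes was 0.16, against -0.03 over all tested genes, and 5 of the 10 had ranges that did not overlap, against 32.0% of all tested genes.

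Clock had a log2 fold change of 0.46 with rSRGN (95% interval 0.27 to 0.65, adjusted p = 0.00166), a 1.37-fold difference, and each hypoxia + rSRGN library lay above each hypoxia library. For Nr1d2 the value was 0.33 (0.16 to 0.50, adjusted p = 0.00768), also with each library higher. Both genes were lower in hypoxia than in control, and with rSRGN both lay between the other groups. Arntl, already high in hypoxia, was a further 0.26 higher (0.07 to 0.44, adjusted p = 0.0521) with no overlap of libraries. Per1 had a value of 0.25 (adjusted p = 0.169) and Per2 one of 0.24 (adjusted p = 0.112), and Nr1d1 was at -0.22 (-0.42 to -0.02, adjusted p = 0.128), with each library lower. The hypoxia group is shared with the first comparison, so a direction opposite to the first one is not independent of it.

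Per3, Cry1, Cry2 and Dbp had log2 fold changes of 0.08, 0.08, -0.10 and 0.05 with rSRGN, all with overlapping ranges. Leaving out hypoxia replicate 2, which held the fewest counts of Per3 (243) and Dbp (62), turned their values to -0.14 and -0.16. The Cry1 value turned to -0.03 without hypoxia replicate 1 and to -0.04 without hypoxia + rSRGN replicate 2. For 9 of the 10 clock genes the 95% interval of the difference lay within 1.5-fold in both directions. The exception was Clock, whose interval reached 0.65 on the log2 scale.

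Of the 11 further loop genes, 1 was called higher with rSRGN and 0 lower, against 2.27% and 0.859% of all tested genes. This was Hlf, which went from 2.58, 1.502 and 1.33 CPM to 3.28, 3.04 and 3.70 CPM, a log2 fold change of 0.87 (SE 0.22, adjusted p = 0.00913). It remained far below its control level, and the call was lost without hypoxia replicate 3, at 0.70 (adjusted p = 0.0534), and in a fit of only the 2 groups compared, at 0.89 (adjusted p = 0.0513). Rora was at 43.2, 35.9 and 31.1 CPM in hypoxia and 48.0, 51.0 and 48.2 CPM with rSRGN, a log2 fold change of 0.42 (adjusted p = 0.00698) under the fold change limit. Arntl2 had a value of -0.58 (adjusted p = 0.0302), which was called at -0.75 without hypoxia replicate 1, at -0.65 without hypoxia + rSRGN replicate 3 and at -0.60 with library size alone in place of TMM. The summed level of the cardiomyocyte markers was higher with rSRGN in every library (8511 to 9135 against 4248 to 6599 CPM). Of these 15 markers 13 were called higher, against 2.27% of all tested genes. The part of this shift in the values of Clock, Nr1d2, Hlf and Rora was not tested.

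Against control, hypoxia + rSRGN had 3 clock genes called higher, against 24.1% of all tested genes, and 3 called lower, against 24.7%. Arntl was at 2.21, Per1 at 1.08 and Per2 at 0.91 on the log2 scale. Per3 was at -1.22, Nr1d2 at -0.71 and Dbp at -2.36. Clock, at -0.55 (adjusted p = 9.99e-06), fell just short of the fold change limit of 0.58, and was called at -0.61 without control replicate 2 and at -0.61 without hypoxia + rSRGN replicate 1. Nr1d1 was at 0.08 (95% interval -0.12 to 0.28, adjusted p = 0.459), the only clock gene whose control and hypoxia + rSRGN ranges overlapped. The ranges of the other 9 did not overlap, which was so for 73.3% of all tested genes.

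Genes that act on the clock proteins were grouped into lists, whose counts of single-gene calls in hypoxia stand against 26.4% of all tested genes called higher and 25.1% called lower. Of 18 genes for kinases, phosphatases and the ubiquitin system that set the life of PER and CRY proteins or act on other clock proteins, 1 was called higher and 7 lower in hypoxia, and the median of the list was -0.37 on the log2 scale. Csnk2b, a casein kinase 2 subunit, was at 0.81. Prkaa2, a catalytic subunit of AMP-activated kinase that can mark CRY1 for breakdown, fell by 3.72, Usp2, a deubiquitinase, fell by 2.29 and Usp9x, another deubiquitinase, by 1.30. With rSRGN, Prkaa2 was called higher at 0.70 and the other 17 were not called. Over all tested genes, 2.27% were called higher with rSRGN and 0.859% lower. At an unadjusted p below 0.05 in edgeR, 9 of the 18 differed in that comparison, against 29.4% of all tested genes.

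Of 14 cofactor genes, 3 were called higher and 3 lower in hypoxia, with a median of 0.15. Both counts were near the shares over all tested genes, 26.4% higher and 25.1% lower, and are no result about the cofactors as a group. Sirt1, a deacetylase that acts on clock proteins, was at 1.01, the acetyltransferase gene Crebbp at 0.64 and Sfpq at 0.60. The PGC-1 coactivator genes Ppargc1a and Ppargc1b fell by 3.40 and 3.31 on the log2 scale, and Ncor1, the corepressor that REV-ERB proteins recruit, fell by 0.80. With rSRGN, Ppargc1a at 0.67 and Ppargc1b at 0.60 were called higher and no other cofactor was called. The shares over all tested genes in that comparison were 2.27% higher and 0.859% lower. Of the 14 cofactor genes, 6 had an unadjusted p below 0.05 in edgeR, against 29.4% of all tested genes.

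Of 18 genes known as outputs of the clock in heart and other tissues, 16 were tested, of which 10 were called lower and 3 higher in hypoxia, and their median was -1.09 on the log2 scale. Over all tested genes 25.1% were called lower and 26.4% higher, with a median of 0.05. The lower ones were led by Kcnip2, a potassium channel subunit, at -3.94, Kcnk3, a potassium channel, at -3.85, and Tcap, a protein of the sarcomere, at -3.84. The higher ones were Hsd11b1 at 1.71, Noct, which encodes nocturnin, at 1.48, and Por at 0.93. With rSRGN, 5 of the 16 were called higher and none lower, against 2.27% and 0.859% of all tested genes, led by Kcnip2 at 1.14, Kcnk3 at 0.86 and Noct at 0.75. Several of these genes are cardiomyocyte genes in their own right, and all 15 cardiomyocyte markers were called lower in hypoxia with a median of -3.66. With rSRGN, 13 of the 15 markers were called higher, with a median of 0.79. The part of these shifts in the values of the output genes was not tested.

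Immediate early, cAMP and glucocorticoid responsive genes stand for the inputs that reset the clock through Per1 and Per2. Of 12 such genes, 6 were called higher and 1 lower in hypoxia, and their median was 0.76 on the log2 scale, against 26.4% and 25.1% of all tested genes and a median of 0.05. Egr1 was at 3.58, Nr4a1 at 3.26 and Fos at 2.43, while Zbtb16, a glucocorticoid target at low level (3.88 CPM in mean in control and 0.39 CPM in hypoxia), fell by 3.28. Of other glucocorticoid targets in the list, Sgk1 was called higher at 0.96, and Fkbp5 at 0.57 and Tsc22d3 at 0.42 were higher in every hypoxia library but under the fold change limit. With rSRGN, Zbtb16 was called higher at 1.39 and the other 11 were not called, where 2.27% of all tested genes were called higher and 0.859% lower. An unadjusted p below 0.05 in edgeR was found for 5 of the 12, against 29.4% of all tested genes.

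Stress and cell type lists are read against the same shares, 26.4% higher and 25.1% lower over all tested genes in hypoxia. All 11 heat shock genes were called higher in hypoxia (median 2.72, led by Hspa1a at 10.34, Hspa1b at 9.30 and Hsph1 at 3.96). Of 15 targets of the hypoxia-inducible factors, 6 were called higher, led by Ndrg1 at 1.48, P4ha1 at 1.41 and Adm at 1.39, and 6 lower, led by Pdk1 at -3.06, Ankrd37 at -2.96 and Bnip3 at -2.14. Ankrd37 was near the floor, with 15 to 41 counts per library in control and 2 to 5 in hypoxia. Bnip3 ranged widely in control, from 29.7 to 77.1 CPM, and from 10.9 to 13.3 CPM in hypoxia. With rSRGN no gene of either list was called by edgeR or DESeq2 at the fold change limit, and 6 of the 11 heat shock genes and 6 of the 15 targets had an unadjusted p below 0.05 in edgeR, against 29.4% of all tested genes. In hypoxia, 9 of 12 fibroblast markers were called higher, 6 of 8 endothelial and all 9 macrophage markers lower, and 2 of 8 smooth muscle markers higher with 1 lower. With rSRGN, 1 fibroblast marker was called lower, 1 endothelial and 1 smooth muscle marker higher, and no macrophage marker was called by edgeR or DESeq2, with 2 of 9 at an unadjusted p below 0.05, against the same 29.4%. The calls with rSRGN stand against 2.27% of all tested genes called higher and 0.859% called lower. The part of these shifts in the clock gene values was not tested.

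**Figure D5:**
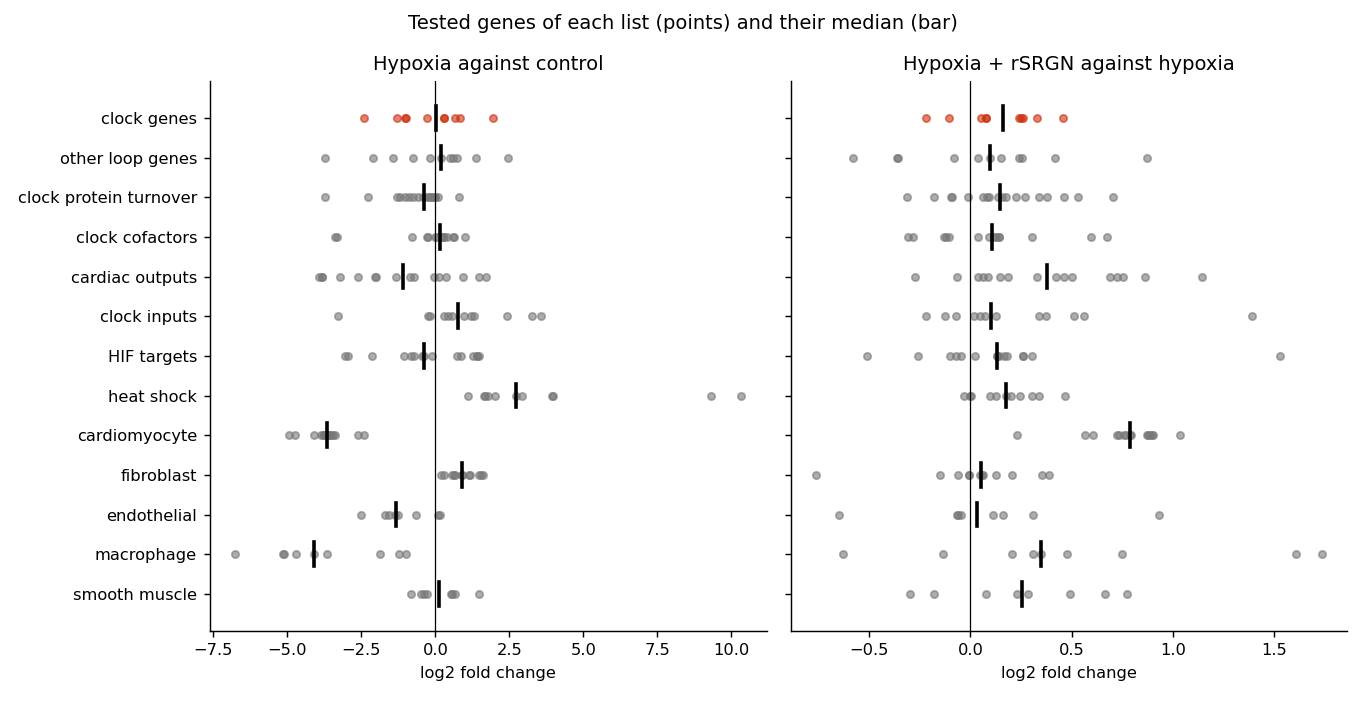
Log2 fold changes of the tested genes of each list (points) with the list median (bar), hypoxia against control on the left and hypoxia + rSRGN against hypoxia on the right, on axes of different span. The clock genes (red) had medians of 0.01 and 0.16, the cardiac output genes -1.09 and 0.38, the heat shock genes 2.72 and 0.18 and the cardiomyocyte markers -3.66 and 0.79.

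Among 14247 tested genes with a mean of at least 1 CPM, the pattern most like each clock gene was found as the smallest root mean square difference of log2 CPM, each gene centred on its own mean over the 9 libraries. For Arntl the closest were Zfp623 (0.074) and Hsp90aa1 (0.080), an HSP90 chaperone gene whose log2 fold change in hypoxia was 2.01. For Dbp they were Nipal3 (0.18) and Extl1 (0.18), for Clock Tanc2 (0.048) and Zbtb41 (0.065), and for Nr1d2 Prkacb (0.064), a catalytic subunit of protein kinase A, and Hus1 (0.066). Per1 was nearest to Ccdc85b (0.065) and Foxc2 (0.072), Per2 to Trabd2b (0.047) and Vat1 (0.055), and Per3 to Ndufb9 (0.13) and Gm49338 (0.14). Cry1 was nearest to Galc (0.096) and Entpd7 (0.097), Cry2 to Chmp6 (0.064) and Prpf19 (0.068), and Nr1d1 to Rps19bp1 (0.058) and Chchd5 (0.061). The 9 libraries fall into 3 groups, so this likeness rests on few independent points.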

How the data were processed

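The authors deposited a table of raw read counts per gene for 9 libraries, whose header names featureCounts 2.0.1 and GENCODE release M25, and whose submitters' processing notes name HISAT2 and the mm10 build. Aligner version, trimming and strand setting were not given in the sources used here. All 9 count columns were used and 0 were left out. Samples were grouped by their treatment label.

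On these counts edgeR 4.0.16 (R 4.3.3) kept 16762 of 55401 genes by filterByExpr, scaled the libraries by TMM and fitted 1 quasi-likelihood model over the 3 groups, with Benjamini-Hochberg adjustment over all tested genes. Standard errors were taken as the log2 fold change divided by the root of F, and 95% intervals from the matching t quantile. CPM per kb used the exon length in the table. Intervals cover the spread between libraries.

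The clock genes were given by name and the other lists were set from general knowledge, both with earlier results of these data known. Of these lists 2 genes are not reported here and were left out of the counts, for a reason unrelated to their values. Named were all clock genes, all loop genes, Sgk1, Fkbp5 and Tsc22d3 (added after their values were seen), up to 3 called genes per direction of each other list with the largest changes, and for each clock gene the 2 genes nearest in pattern. Alternatives were RLE scaling, library size alone, count filters, no fold change limit, unadjusted p, a replicate block, only the groups compared, each library left out, and DESeq2 1.42.0. Figures were drawn with matplotlib 3.10.9.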

Additional observations from a re-analysis of the deposited data

How the results depend on the processing

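All 7 calls of hypoxia against control were kept under each alternative that applied the fold change limit, and the count stayed at 7 whichever library was left out. Without a fold change limit it was 10. The share of all tested genes at that setting is not given here, so this count is no result about clock genes as a group. For hypoxia + rSRGN against hypoxia the count was 0 under each alternative and with each library left out, except with no fold change limit, where it was 2, against 16.6% of all tested genes. Against control the count for hypoxia + rSRGN was 6 to 7 over the libraries left out, 7 with the filter of at least 1 count, where Clock was called at -0.59, and 9 without a fold change limit. For that 9, too, no share over all tested genes is given here. With library size alone in place of TMM, the median log2 fold change of all tested genes in hypoxia against control was 0.12 and the calls of the clock genes did not change.

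Signs turned only for uncalled values of hypoxia + rSRGN against hypoxia. Over the libraries left out, Per3 ranged from -0.14 (without hypoxia replicate 2) to 0.31, Dbp from -0.16 (without hypoxia replicate 2) to 0.26, and Cry1 from -0.042 (without hypoxia + rSRGN replicate 2) to 0.18, with -0.03 without hypoxia replicate 1. The cause was not tested.

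Samples with the same replicate number did not deviate together (correlations of -0.037 to 0.021 over genes), so the numbers do not pair the samples. With the replicate number as a block the counts were 7, 0 and 6, as without it. Dbp had 62 to 115 counts in the hypoxia libraries, and the 95% interval of its difference between the hypoxic groups ran from -0.33 to 0.43 on the log2 scale. The parts of depth and of the spread between libraries in that width were not separated.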
